A study of Mus musculus with 6 samples.

Results

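The 45 genes described here mark the early nervous system, and were selected by symbol from a list of neural progenitor regulators and early neuronal genes. All 45 had a row in the count tables, out of 24421 gene symbols, and each had at least 1 count in at least 1 library. They fall into 7 general progenitor genes, 16 regional regulators and 22 neuronal genes. The libraries came from Lphn2 KO mice, labelled homozygous for the knockout (3 libraries), and from wild type mice, WT below (3 libraries). Both groups carry the same further labels: strain C57BL/6N, embryonic day 9.5 and whole embryo as the tissue. Lphn2, now named Adgrl2, is a latrophilin, a cell surface receptor of the adhesion class. Neither the deleted stretch of the gene, nor the number of embryos in a library, nor their litters are given, so p-values measure only the spread between these samples. Values of a group are given in the order of its replicates 1, 2 and 3.

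The assay reads tags at the 3′ end of polyadenylated RNA, and tag totals lay between 14476809 and 23887717 in KO libraries and between 18352150 and 36213611 in WT libraries. Levels are in CPM, counts relative to the library total after scaling by the TMM factors of edgeR. The limit that a count of 0 allows, 3 counts, lay between 0.118 and 0.214 CPM in KO libraries and between 0.0783 and 0.183 CPM in WT libraries, for counting error only. Adgrl2 itself had 5.48, 1.66 and 2.78 CPM in KO libraries, against 10.9, 7.55 and 15.9 CPM in WT libraries (log2 fold change -1.78 ± 0.50 (SE), adjusted p = 0.194, edgeR quasi-likelihood test). Tags from the 3′ end may lie outside the deleted part, so this does not check the genotype.

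In the mouse embryo, neural tube progenitors are kept dividing by SoxB1 transcription factors and Notch signalling. Opposed dorsal and ventral signals, and others along the head to tail axis, switch on homeodomain and paired-box factors that give each progenitor domain its identity. Proneural basic helix-loop-helix factors then drive cells out of the cycle, and the newborn neurons build up tubulins, microtubule-associated proteins, RNA-binding proteins and neurofilaments. In bulk RNA, fewer cells of a type and less RNA per cell cannot be told apart.

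The neural genes were read at lower levels in KO than in WT libraries, and the WT libraries were themselves far apart. Summed over the 45 genes, the level was 109.8, 44.1 and 54.96 CPM in KO libraries, against 235, 106 and 2210 CPM in WT libraries. KO replicate 1 lay above WT replicate 2, so the sums of the groups overlapped, and WT replicate 3 alone gave 86.6% of the WT sum. The mean over replicates was lower in KO for 45 of the 45 genes, but WT replicate 3 was the highest library for 43 of them. For 25 of the 45, some KO value lay above WT replicate 2. By fitted fold change 53.4% of all genes tested were lower, and the share by mean was not taken. All 3 KO values lay below all 3 WT values for 13 of the 45 genes, namely Sox1, Sox2, Hes5, Pax6, Dbx1, Olig2, Otx2, En1, En2, Elavl3, Elavl4, Stmn3 and Ina. This count includes genes with too few counts to be tested. Over all genes that had enough counts to be tested, the share was 9.39%. No gene of the 45 had all 3 KO values above all 3 WT values.

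Of the 45 genes, 18 had enough counts to be tested (filterByExpr of edgeR). None of the 18 passed the threshold of 0.05 in the edgeR quasi-likelihood test after Benjamini-Hochberg adjustment over 13848 genes, in which 0.0505% of all genes were called lower and 0% higher. At an unadjusted p under 0.05, 12 of the 18 were lower and 0 higher, beside 6.86% and 8.67% of all genes tested. DESeq2 called 6 of the 18 lower, beside 2.79% of all genes, and limma-voom called 0. DESeq2 gave no adjusted p for Dcx, Elavl4, Map2 and Mapt, so it could not call these. Groups did not overlap for 6 of the 18 genes, with KO lower, beside 9.39% of all genes tested. The fitted log2 fold change was below 0 for 18 of the 18 genes, with a median of -3.75, beside 53.4% and a median of -0.04 for all genes tested. A gene at or near 0 in KO libraries enters the test only through its WT counts and then has to differ, so the count and median over the 18 genes are a description only.

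Detection followed the same order of libraries. At least 1 count was found for 33, 22 and 29 of the 45 genes in KO libraries, against 44, 32 and 45 in WT libraries. Regional regulators were detected for 10, 5 and 7 of the 16 in KO libraries, against 15, 10 and 16 in WT libraries. Neuronal genes were detected for 17, 12 and 17 of the 22 in KO libraries, against 22, 16 and 22 in WT libraries. General progenitor genes stood at 6, 5 and 5 of the 7 in KO libraries, against 7, 6 and 7 in WT libraries. Over all symbols, 14880 to 16108 were above 0 in KO libraries and 15159 to 17322 in WT libraries. A level of at least 0.5 CPM, which depends less on depth, was reached by 15, 11 and 10 of the 45 genes in KO libraries, against 37, 16 and 41 in WT libraries. WT replicate 2 thus lay closer to the KO libraries than to the other WT libraries by this count.

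**Figure D1:**
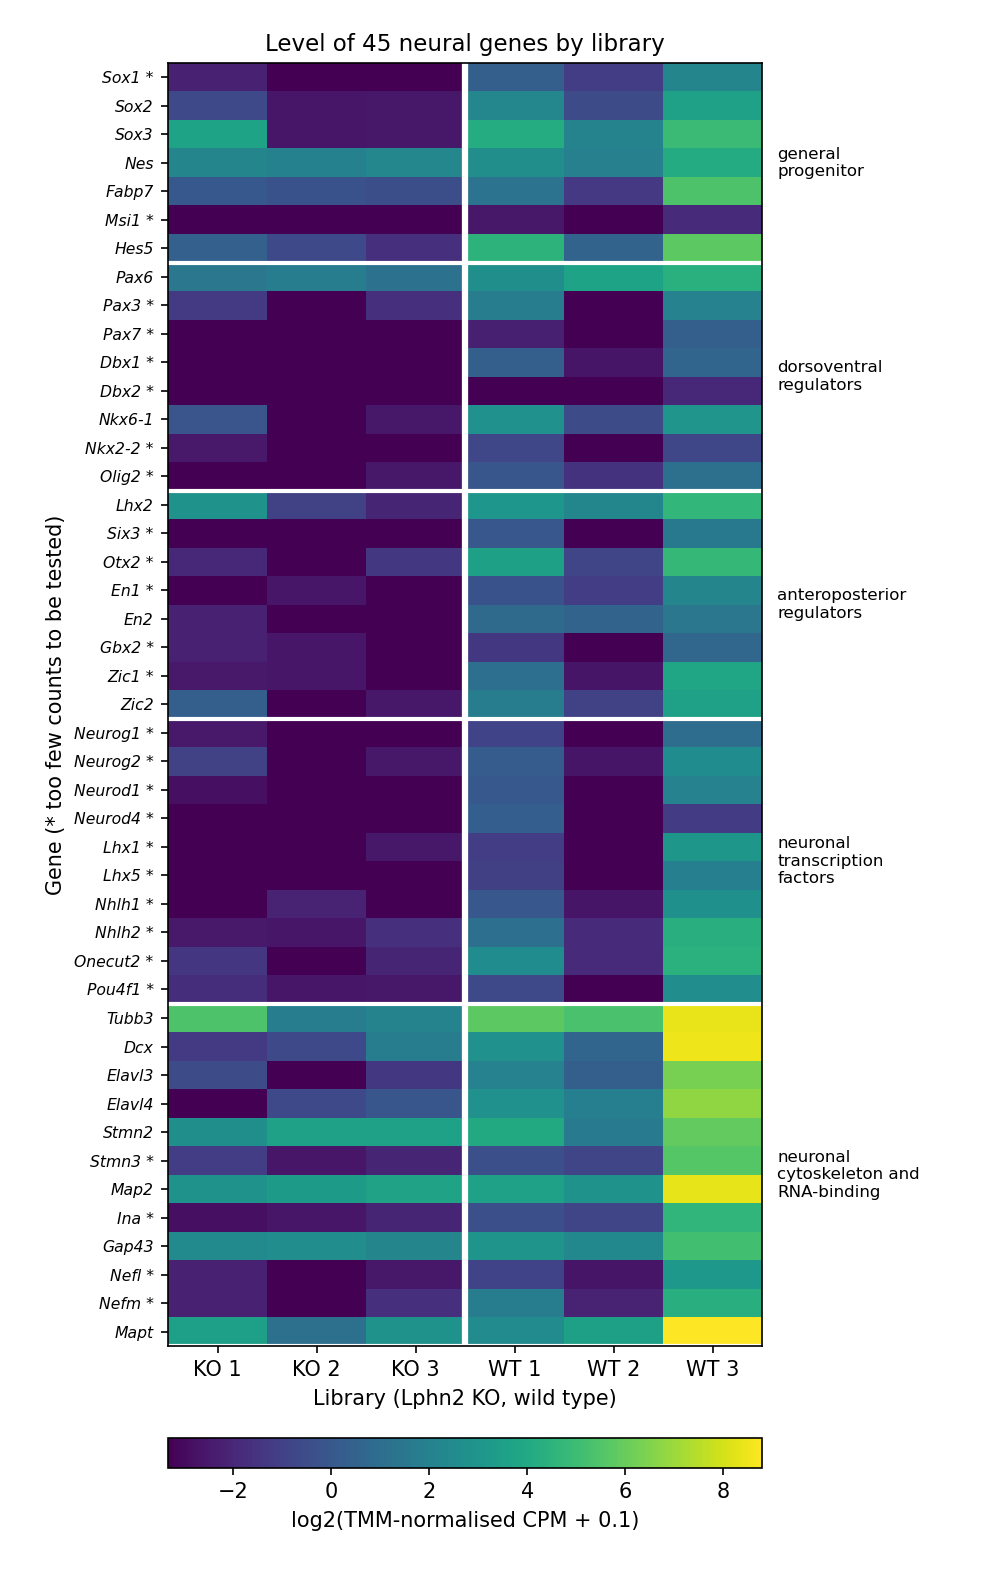
Level of each of the 45 genes (rows, grouped by role) in each library (columns, Lphn2 KO left of WT), as log2 of TMM-normalised CPM plus 0.1; an asterisk marks the 27 genes with too few counts to be tested. Above 2 CPM, the KO 2 and KO 3 columns show Nes, Pax6, Tubb3, Stmn2, Map2, Gap43 and Mapt, with Dcx in KO 3 as well, and WT 3 is brightest for 43 of the 45 genes.

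A small set of genes carried most of the neural reads left in the KO libraries. Nes, Pax6, Tubb3, Stmn2, Map2, Gap43 and Mapt were the 7 genes with at least 10 counts in every library. They made up 73.9%, 92.2% and 86.3% of the summed level of the 45 genes in KO libraries, against 45.9%, 78.4% and 55.7% in WT libraries. The other 38 genes summed to 28.7, 3.46 and 7.55 CPM in KO libraries, against 127.4, 22.9 and 979 CPM in WT libraries. Here every KO library except replicate 1 lay below every WT library. These 7 genes were picked out after their values were seen, and the difference in share was not tested. The rule of at least 10 counts in every library includes the KO libraries. It thus favours a high share of the 7 genes in KO and low KO sums of the other 38, so these values are a description only. As background, Nes is also known from developing muscle and endothelium.

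Promoter sequence is shown for 1 gene of each class whose KO values all lay below its WT values, chosen after the values were seen: Hes5, a Notch target that keeps progenitors undifferentiated; Pax6, a dorsoventral regulator; and Elavl3, a neuronal RNA-binding protein. Where RefSeq lists more than 1 transcription start for a gene, only the most upstream one was used. Each line gives the 250 bases before that start on the gene's own strand, from RefSeq on GRCm38.p6. They lie at chr4:154960673-154960922 (plus strand), chr2:105668646-105668895 (plus strand) and chr9:22052024-22052273 (minus strand).
Hes5: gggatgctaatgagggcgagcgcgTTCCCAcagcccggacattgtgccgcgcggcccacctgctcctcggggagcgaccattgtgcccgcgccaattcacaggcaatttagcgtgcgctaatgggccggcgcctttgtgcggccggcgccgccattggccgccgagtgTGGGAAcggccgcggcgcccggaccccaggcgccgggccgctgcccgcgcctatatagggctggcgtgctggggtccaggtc
Pax6: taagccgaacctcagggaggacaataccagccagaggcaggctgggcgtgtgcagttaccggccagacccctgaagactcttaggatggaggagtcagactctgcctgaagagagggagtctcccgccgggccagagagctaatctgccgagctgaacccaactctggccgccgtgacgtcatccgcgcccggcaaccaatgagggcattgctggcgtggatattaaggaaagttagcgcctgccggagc
Elavl3: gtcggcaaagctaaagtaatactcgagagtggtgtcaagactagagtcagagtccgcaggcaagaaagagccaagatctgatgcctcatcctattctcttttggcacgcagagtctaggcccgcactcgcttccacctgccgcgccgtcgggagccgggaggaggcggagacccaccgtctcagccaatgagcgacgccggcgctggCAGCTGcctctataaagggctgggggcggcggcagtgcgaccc
Capitals mark matches to TGGGAA, the core letters bound by the Notch effector RBPJ, and to CAGATG or CAGCTG, E-box letters bound by proneural factors, on either strand. In the stretches shown, Hes5 holds 2 matches to TGGGAA or its reverse complement TTCCCA, Elavl3 holds 1 CAGCTG, and Pax6 holds none of these letters. In the RefSeq windows, 33 of the 45 genes matched, with 43 windows. Not matched were Msi1, Sox3, Pax3, En2, Zic2, Lhx5, Onecut2, Stmn2, Gap43, Nefl, Nefm and Mapt. The E-box letters were in 14 of these 43 windows (32.6%), beside 25.5% of 32851 windows of all genes, with 4 of 18 for regional regulators and 9 of 20 for neuronal genes. TGGGAA was in 7 of the 43 windows (16.3%), beside 21.6% of all windows. A match describes letters in a window, and windows of the same gene can overlap.

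Among the general progenitor genes, the SoxB1 factor Sox2, which maintains neural stem cells, had 0.548, 0.0666 and 0.0712 CPM in KO libraries, against 4.74, 0.609 and 12.2 CPM in WT libraries. All KO values lay below all WT values, and KO replicates 2 and 3 held a single count each. Its log2 fold change was -4.51 ± 1.24 (SE) (adjusted p = 0.19, edgeR quasi-likelihood test). Sox3, its X-linked relative, had 13.1, 0.0666 and 0.0712 CPM in KO libraries, against 17.9, 4.14 and 30.8 CPM in WT libraries. KO replicate 1 lay above WT replicate 2, while KO replicates 2 and 3 again held 1 count each (log2 fold change -1.97 ± 1.57 (SE), edgeR adjusted p = 0.582). Sox1, the third member of the family, had too few counts to be tested, with 3, 0 and 0 counts in KO libraries, against 32, 6 and 173 counts in WT libraries.

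Hes5 (mm10 chromosome 4, 154960923 to 154962371) had 1.21, 0.533 and 0.214 CPM in KO libraries, against 23.05, 1.34 and 54.05 CPM in WT libraries. The KO values lay below the WT values, narrowly so for KO replicate 1 and WT replicate 2 (log2 fold change -5.24 ± 1.29 (SE), edgeR adjusted p = 0.173). Fabp7, a fatty acid-binding protein of radial glia, had 0.901, 0.732 and 0.641 CPM in KO libraries, against 2.32, 0.304 and 42.2 CPM in WT libraries. All 3 KO values lay above WT replicate 2, and without WT replicate 3 its log2 fold change was -0.79, against -4.28 with all libraries. Nes, the intermediate filament nestin, had 4.50, 3.93 and 4.84 CPM in KO libraries, against 6.26, 3.77 and 17.6 CPM in WT libraries. All KO values lay between those of WT replicates 1 and 2, and WT replicate 3 lay apart (log2 fold change -1.06 ± 0.56 (SE), edgeR adjusted p = 0.406). The RNA-binding protein gene Msi1 had 0 counts in every KO library and 2, 0 and 7 counts in WT libraries, too few for a comparison.

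Of the 8 dorsoventral regulators, Pax6 and Nkx6-1 were tested. Pax6 (mm10 chromosome 2, 105668900 to 105697364), which sets the middle domains of the neural tube and the eye field, had 2.66, 3.33 and 2.28 CPM in KO libraries, against 6.51, 13.1 and 20.5 CPM in WT libraries. The groups did not overlap, and WT replicate 2 lay between the other WT replicates, where it was the lowest WT library for 42 of the 45 genes. Its log2 fold change was -2.28 ± 0.45 (SE), with -1.84 without WT replicate 3, and did not pass the threshold (edgeR adjusted p = 0.166). Nkx6-1, a ventral homeodomain factor of motor neuron progenitors, had 0.823, 0 and 0.0712 CPM in KO libraries, against 6.80, 0.609 and 7.88 CPM in WT libraries. KO replicate 1 exceeded WT replicate 2, while WT replicates 1 and 3 were close to each other (log2 fold change -3.94 ± 1.35 (SE), edgeR adjusted p = 0.249).

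The other 6 dorsoventral regulators were nearly unread in KO libraries. Dbx1, which marks the central domain, had 0 counts in every KO library and 32, 1 and 56 counts in WT libraries. With the counts of each group pooled and 3 counts as the floor, it was at least 19.7-fold lower in KO. Without WT replicate 3 the bound was 13.6-fold. The single count in WT replicate 2 was 0.0609 CPM, under the 0.118 to 0.214 CPM that a count of 0 allows in KO libraries. This and the later bounds of this kind cover counting error only, not the spread between libraries. They were taken only for genes at 0 in every KO library. Olig2, which specifies motor neuron progenitors, had 0, 0 and 1 counts in KO libraries, against 23, 4 and 82 in WT libraries, without overlap. Pax7, a dorsal factor, had 0 counts in KO libraries and 3, 0 and 45 counts in WT libraries, at least 10.6-fold lower by the same floor. That bound comes from WT replicate 3, since the other WT libraries held 3 counts, and it is 3.53-fold with the divisor 3 that the Pax7 counts share removed. Pax3, which marks dorsal neural tube and neural crest, had 8, 0 and 3 counts in KO libraries, against 94, 0 and 155 in WT libraries. Here and for Pax7 the value of 0 in WT replicate 2 made the groups overlap. Nkx2-2, the most ventral of these regulators, had 2, 0 and 0 counts in KO libraries and 14, 0 and 19 counts in WT libraries. Dbx2 was read with 6 counts in WT replicate 3 alone.

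Of the 8 anteroposterior regulators, 3 were tested. En2, a homeodomain factor of the midbrain and hindbrain, had 0.118, 0 and 0 CPM in KO libraries, against 1.74, 1.34 and 2.74 CPM in WT libraries. The groups were apart, with 3 counts in KO replicate 1 and none in the other KO libraries (log2 fold change -5.15 ± 1.07 (SE), edgeR adjusted p = 0.166). Lhx2, a LIM homeodomain factor of the forebrain and eye, had 7.29, 0.399 and 0.142 CPM in KO libraries, against 8.10, 4.63 and 26.2 CPM in WT libraries. KO replicate 1 was close to WT replicate 1, and only KO replicates 2 and 3 were below all WT values (log2 fold change -2.27 ± 1.28 (SE), edgeR adjusted p = 0.438). Zic2, a zinc finger factor of the dorsal midline and forebrain, had 1.18, 0 and 0.0712 CPM in KO libraries, against 3.36, 0.426 and 12.3 CPM in WT libraries. KO replicate 1 lay above WT replicate 2 (log2 fold change -3.56 ± 1.52 (SE), edgeR adjusted p = 0.322).

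Otx2, the head organizing factor of forebrain and midbrain, was the regional regulator with the most counts among those not tested. It had 4, 0 and 4 counts in KO libraries, against 320, 8 and 1030 counts in WT libraries, and the groups did not overlap. Six3, which acts in the most anterior forebrain, had 0 counts in KO libraries and 24, 0 and 111 counts in WT libraries. By pooled counts, and for counting error only, it was at least 29.8-fold lower in KO. The bound is 9.91-fold without WT replicate 3, and 9.94-fold with the divisor 3 that its counts share removed. En1, the partner of En2, had 0, 1 and 0 counts in KO libraries, against 20, 6 and 174 in WT libraries, again without overlap. Zic1, a relative of Zic2, had 2, 1 and 0 counts in KO libraries, against 57, 1 and 523 in WT libraries. Gbx2, which bounds the hindbrain, had 3, 1 and 0 counts in KO libraries, against 8, 0 and 57 in WT libraries. For both, WT replicate 2 was at or near 0 and the groups overlapped.

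None of the 10 neuronal transcription factors had enough counts to be tested. Their summed counts were 28, 4 and 8 in KO libraries, against 375, 8 and 2968 in WT libraries. WT replicate 2 was thus within the KO range, and the signal in WT came from replicates 1 and 3. Onecut2, a cut-homeodomain factor of motor neurons and interneurons, had 7, 0 and 2 counts in KO libraries, against 161, 3 and 814 in WT libraries. The LIM factor Lhx5 had 0 counts in KO libraries and 11, 0 and 139 counts in WT libraries. By pooled counts, and for counting error only, it was at least 33.1-fold lower in KO. WT replicate 3 held 139 of these counts, and the bound is 4.54-fold without it. Its relative Lhx1, also of interneurons, had 0, 0 and 1 counts in KO libraries, against 10, 0 and 319 in WT libraries. The proneural gene Neurog2, which starts neurogenesis, kept the most counts of these factors in a KO library, with 11, 0 and 1 counts in KO libraries, against 29, 1 and 226 in WT libraries. Neurog1, its counterpart in cranial sensory ganglia and dorsal neural tube, had 2, 0 and 0 counts in KO libraries, against 12, 0 and 73 in WT libraries.

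The differentiation factors downstream of the proneural genes were equally sparse. Neurod1 had 1, 0 and 0 counts in KO libraries, against 25, 0 and 157 in WT libraries. Neurod4 had 0 counts in KO libraries and 31, 0 and 13 counts in WT libraries. By pooled counts, and for counting error only, it was at least 9.72-fold lower in KO. Neurod4 was 1 of the 2 members, with Nkx2-2, whose highest CPM was in WT replicate 1. Nhlh2, a helix-loop-helix factor of postmitotic neurons, had 2, 1 and 3 counts in KO libraries, against 57, 3 and 745 in WT libraries. Its relative Nhlh1 had 0, 2 and 0 counts in KO libraries, against 24, 1 and 254 in WT libraries. Pou4f1, a POU factor of sensory neurons, had 5, 1 and 1 counts in KO libraries, against 15, 0 and 228 in WT libraries. For none of the 10 factors were the groups apart, since WT replicate 2 held 0 to 3 counts of each.

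Among the 12 cytoskeletal and RNA-binding genes of neurons, 8 were tested, and WT replicate 3 was the highest library for every one of the 12. Tubb3, the neuronal beta-tubulin, had 43.2, 3.46 and 4.20 CPM in KO libraries, against 53.5, 39.2 and 334 CPM in WT libraries. KO replicate 1 was within the WT range, and KO replicates 2 and 3 were below it (log2 fold change -3.06 ± 1.24 (SE), edgeR adjusted p = 0.306). Dcx (mm10 chromosome X, 143855842 to 143933311), doublecortin of migrating young neurons, had 0.313, 0.533 and 3.42 CPM in KO libraries, against 6.95, 1.46 and 355 CPM in WT libraries. KO replicate 3 exceeded WT replicate 2 (log2 fold change -6.49 ± 2.17 (SE), edgeR adjusted p = 0.242). Elavl3 (mm10 chromosome 9, 22015005 to 22052023) had 0.588, 0 and 0.285 CPM in KO libraries, against 3.98, 1.16 and 80.3 CPM in WT libraries. Elavl4, its paralog, had 0, 0.533 and 0.854 CPM in KO libraries, against 6.98, 3.65 and 112 CPM in WT libraries. These were the 2 tested neuronal genes whose groups did not overlap, with log2 fold changes of -6.46 ± 1.83 (SE) for Elavl3 (edgeR adjusted p = 0.194) and -6.60 ± 1.74 (SE) for Elavl4 (edgeR adjusted p = 0.183). Without WT replicate 3 the log2 fold changes were -1.42 for Tubb3, -1.60 for Dcx, -3.04 for Elavl3 and -3.60 for Elavl4.

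The other 4 tested genes had KO values near those of WT replicates 1 and 2. Stmn2, a stathmin of growth cones, had 6.42, 12.2 and 12.2 CPM in KO libraries, against 16.3, 3.16 and 58.2 CPM in WT libraries. Map2, a microtubule-associated protein of dendrites, had 7.44, 9.59 and 12.4 CPM in KO libraries, against 12.01, 7.42 and 321 CPM in WT libraries. For both genes every KO value lay above WT replicate 2, and WT replicate 3 alone was far above the rest. Gap43, a growth cone protein, had 5.44, 6.06 and 4.48 CPM in KO libraries, against 7.71, 4.99 and 34.6 CPM in WT libraries. Mapt (mm10 chromosome 11, 104231390 to 104332090), the axonal protein tau, had 11.5, 2.13 and 7.05 CPM in KO libraries, against 5.72, 11.6 and 445 CPM in WT libraries. KO replicates 1 and 3 exceeded WT replicate 1 for Mapt. The log2 fold changes were -1.34 ± 0.88 (SE) for Stmn2, -3.54 ± 1.38 (SE) for Map2, -1.57 ± 0.70 (SE) for Gap43 and -4.47 ± 1.68 (SE) for Mapt, with edgeR adjusted p between 0.273 and 0.505. Without WT replicate 3 they were 0.06 for Stmn2, 0.0018 for Map2, -0.26 for Gap43 and -0.31 for Mapt.

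The 4 untested genes of this kind had most of their counts in WT replicate 3. Stmn3, a stathmin, had 9, 1 and 2 counts in KO libraries, against 19, 8 and 1863 in WT libraries. Ina, the neuronal intermediate filament internexin, had 1, 1 and 2 counts in KO libraries, against 19, 8 and 956 in WT libraries. In CPM, all KO values of both genes lay below all WT values. The neurofilament gene Nefm had 3, 0 and 3 counts in KO libraries, against 90, 2 and 768 in WT libraries, and Nefl had 3, 0 and 1 counts in KO libraries, against 12, 1 and 331 in WT libraries. Nefm and Nefl overlap on opposite strands of mm10 chromosome 14, and since the counting is not stated to use strand, their reads may not be told apart.

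**Figure D2:**
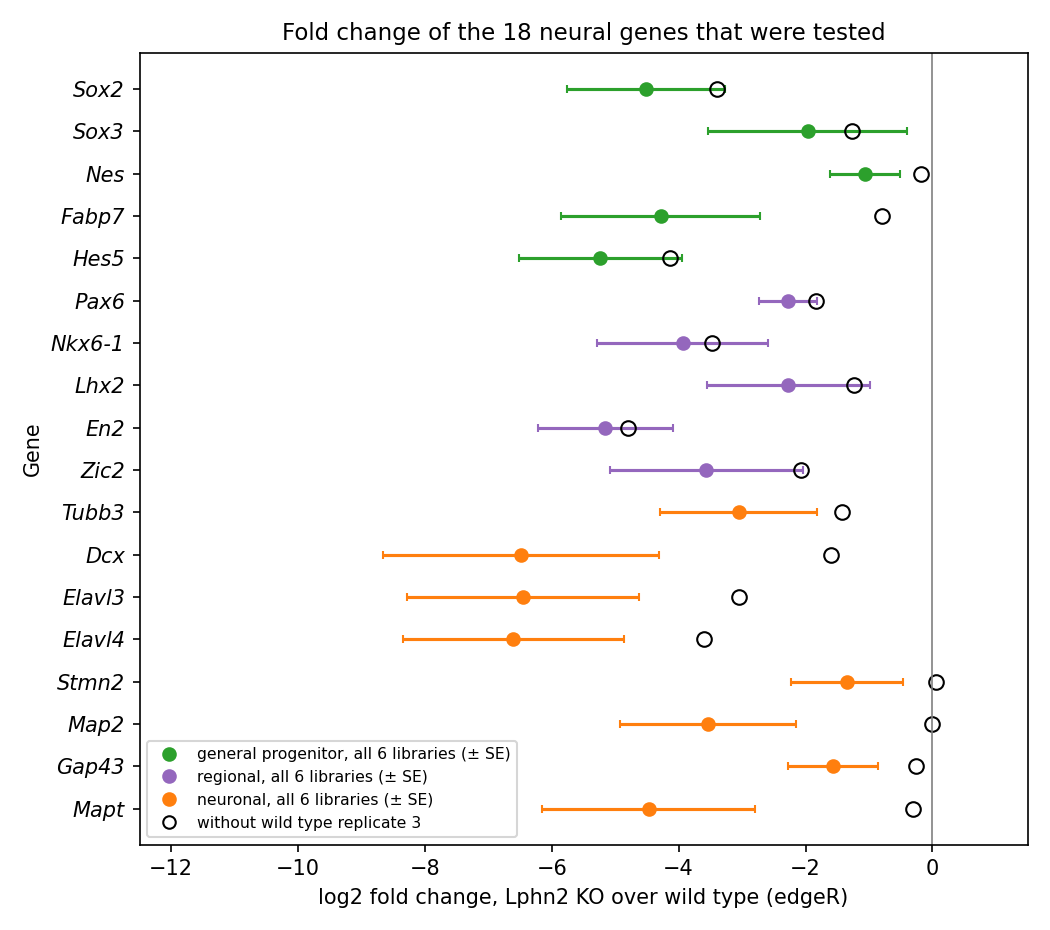
Log2 fold change, Lphn2 KO over WT, of the 18 tested genes from the edgeR fit with all 6 libraries (filled points, bars ± SE) and without WT replicate 3 (open circles). All 18 values move towards or past 0 when that library is left out, most for Dcx (-6.49 to -1.602) and least for En2 (-5.15 to -4.81), with Fabp7, a general progenitor gene, at -4.28 and -0.79.

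Regional regulators and neuronal genes were next set against each other. The median log2 fold change was -3.56 over the 5 tested regional regulators and -4.01 over the 8 tested neuronal genes, with -4.28 over the 5 general progenitor genes and -0.04 over all genes tested. Without WT replicate 3 these medians were -2.07 for regional regulators, -0.87 for neuronal genes and -1.26 for general progenitor genes. The order of the 2 classes also turned with all WT libraries kept: it was -4.28 for regional regulators and -2.77 for neuronal genes with limma-voom, -3.95 and -2.91 with the replicate block, and -6.73 and -5.86 without KO replicate 1. The classes therefore have no settled order here, and the difference between them was not tested. Summed levels of regional regulators were 12.8, 3.93 and 3.13 CPM in KO libraries, against 48.05, 21.4 and 129 CPM in WT libraries, and these groups did not overlap. That separation rests on Pax6, which gave 13.1 of the 21.4 CPM in WT replicate 2. Without Pax6 the other 15 regional regulators summed to 10.1, 0.599 and 0.854 CPM in KO libraries, against 41.5, 8.22 and 108.1 CPM in WT libraries, so that KO replicate 1 lay above WT replicate 2. Neuronal genes summed to 76.6, 34.9 and 45.99 CPM in KO libraries, against 132, 74.2 and 1920 CPM in WT libraries. KO replicate 1 was above WT replicate 2, and WT replicate 3 held 90.3% of the WT sum.

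**Figure D3:**
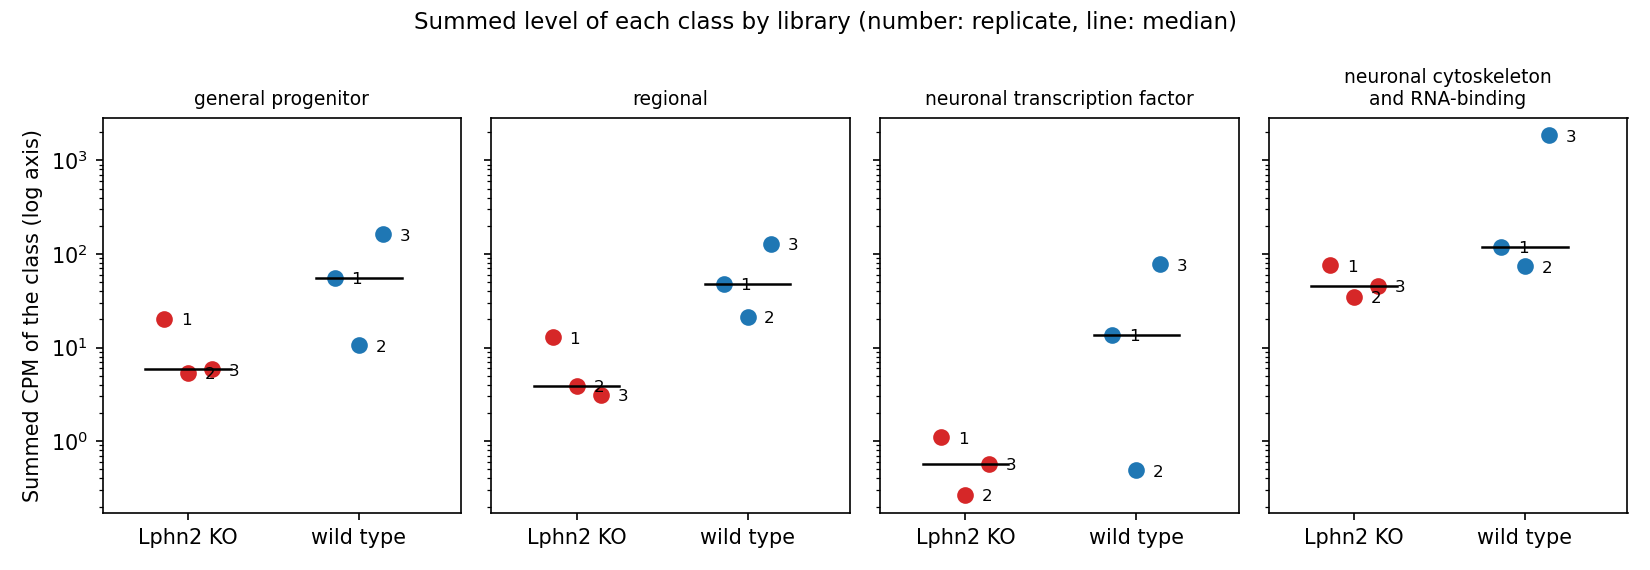
Summed TMM-normalised CPM (log axis) of general progenitor genes, regional regulators, neuronal transcription factors and neuronal cytoskeletal and RNA-binding genes, 1 point per library with its replicate number, Lphn2 KO left of WT, and a line at each group's median. Regional regulators are the class in which all 3 KO points lie below all 3 WT points, at 3.13 to 12.8 CPM against 21.4 to 128.6 CPM; without Pax6 KO replicate 1 (10.1 CPM) lies above WT replicate 2 (8.22 CPM).

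The share of regional regulators in the counts of both classes varied within each group. It was 14.3% in KO replicate 1 (95% Wilson interval 12.95 to 15.8), 10.1% in KO replicate 2 (7.93 to 12.8) and 6.38% in KO replicate 3 (4.78 to 8.45). In WT it was 26.7% in replicate 1 (25.5 to 27.97), 22.3% in replicate 2 (20.4 to 24.5) and 6.28% in replicate 3 (6.11 to 6.45). These intervals cover counting error only, and are too narrow where the counts of a gene share a divisor. WT replicates 1 and 2 were above every KO library, whereas WT replicate 3 was at the level of the lowest KO library. For WT replicate 2 this rests on Pax6: without it the share was 11.7, 1.69 and 1.82% in KO libraries, against 23.97, 9.96 and 5.33% in WT libraries, and KO replicate 1 lay above WT replicate 2. Put the other way, there were 5.98, 8.88 and 14.7 neuronal counts per regional count in KO libraries, against 2.74, 3.48 and 14.9 in WT libraries. With each gene divided by the common divisor of its 6 counts, the regional share was 9.64, 6.50 and 4.56% in KO libraries, against 22.2, 14.98 and 5.62% in WT libraries. WT replicates 1 and 2 were again above every KO library, and WT replicate 3 then lay above KO replicate 3.

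WT replicates 3 and 1 were further apart for these genes than for most. Over 14153 symbols with at least 10 counts in both libraries, the ratio of WT replicate 3 to WT replicate 1 had a median of 1.01 and lay between 0.464 and 3.34 for the central 90% of symbols. For the 41 neural genes that met this count the median ratio was 4.48. By role it was 1.23 for 6 dorsoventral regulators, 2.69 for 6 general progenitor genes and 3.34 for 7 anteroposterior regulators. Neuronal transcription factors (10 genes) had a median ratio of 6.63, and neuronal cytoskeletal and RNA-binding genes (12 genes) one of 20.0. Mapt had the highest ratio, 77.8 (95% counting interval 66.6 to 91.6), and Neurod4 the lowest, 0.303 (0.145 to 0.595). Among dorsoventral regulators the ratio was 1.16 for Nkx6-1 and 1.19 for Pax3, but 2.57 for Olig2 (1.603 to 4.28) and 3.14 for Pax6 (2.67 to 3.72). Zic2, a factor of the dorsal midline, and its relative Zic1 were counted as anteroposterior. Their ratios of 3.67 and 6.62 lay above all of these, so the contrast of the 2 regional roles depends on that assignment. Pax7, with 3 counts in WT replicate 1, fell under the minimum and had 45 counts in WT replicate 3. Of the genes of young neurons, Dcx had a ratio of 51.1. This is a description of 2 libraries, with no test. WT replicate 1 over WT replicate 2 gave another order of roles. The median ratio was 6.06 for 4 general progenitor genes and 5.84 for 2 dorsoventral regulators. It was 1.77 for 8 neuronal cytoskeletal and RNA-binding genes and 1.53 for 2 anteroposterior regulators, beside 0.983 for all symbols.

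**Figure D4:**
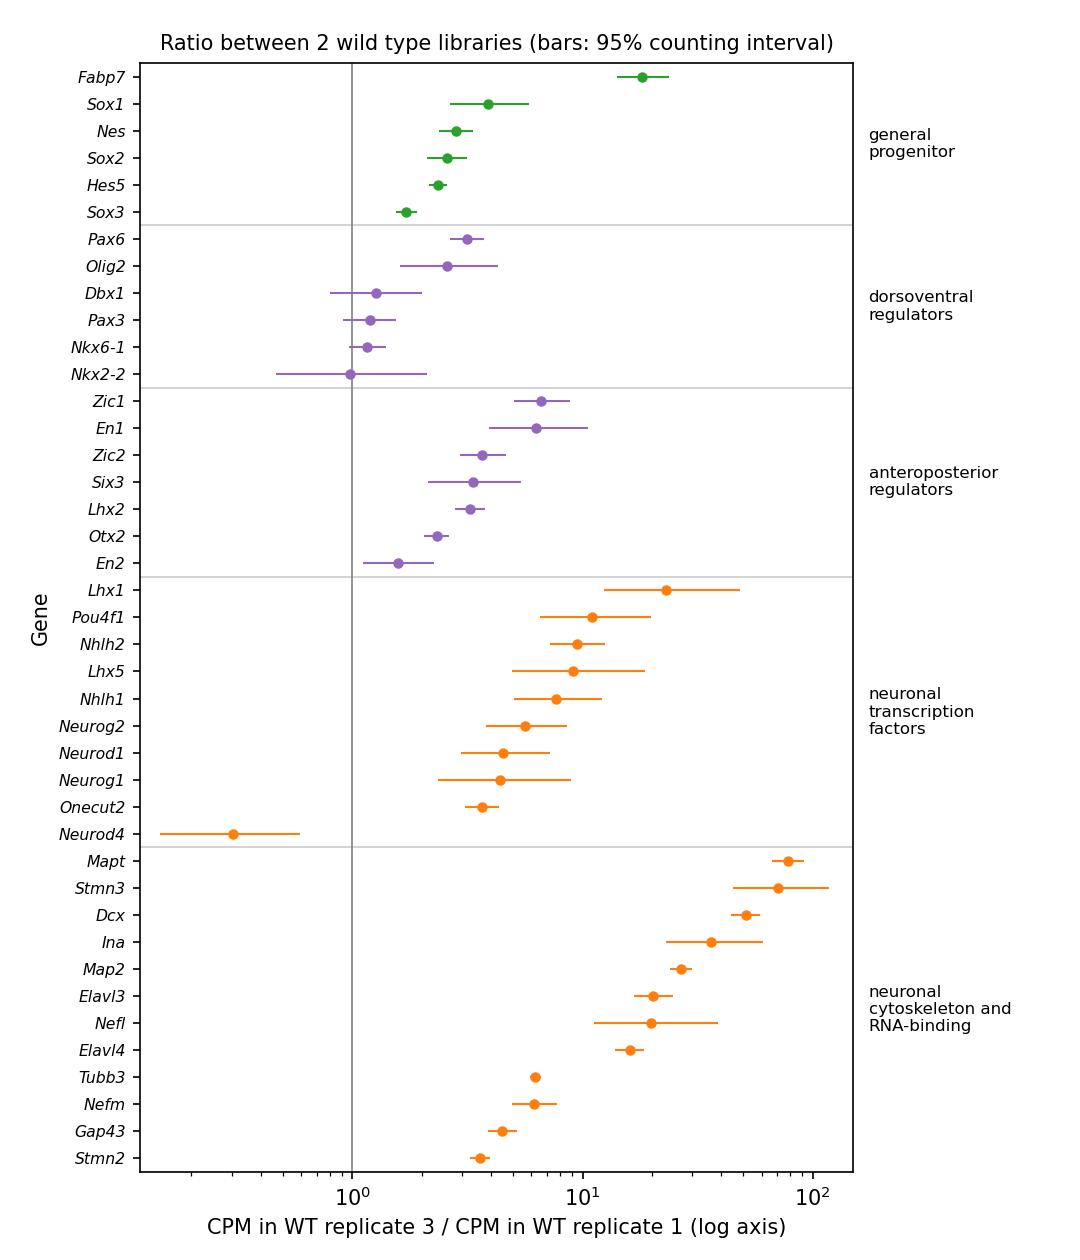
Ratio of CPM in WT replicate 3 to CPM in WT replicate 1 (log axis) for the 41 neural genes with at least 10 counts in both, grouped by role and sorted within each, with 95% counting intervals as bars. Dorsoventral regulators lie between 0.979 and 3.14, with Zic1 (6.62) and Zic2 (3.67) counted as anteroposterior. Neuronal cytoskeletal and RNA-binding genes lie between 3.58 and 77.8.

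The KO libraries were not alike either. KO replicate 1 had a higher CPM than KO replicates 2 and 3 for 23 of the 45 genes, and a higher CPM than WT replicate 2 for 20. Against WT replicate 1, KO replicate 1 held Lhx2 at a ratio of 0.899, Tubb3 at 0.808, Sox3 at 0.731 and Mapt at 2.01, but Sox2 at 0.116 and Hes5 at 0.0527. Without KO replicate 1, 3 of 35 members tested in that fit passed the edgeR threshold as lower, namely Sox3 (adjusted p = 0.0288), Lhx2 (adjusted p = 0.0401) and En2 (adjusted p = 0.0425). In the same fit 466 of 14249 genes (3.27%) were called lower and 252 (1.77%) higher. KO replicates 2 and 3 then stand alone against WT. They held 1 and 1 counts of Sox3, 6 and 2 of Lhx2, and 0 and 0 of En2. Genes near 0 in both enter that fit only through their WT counts and then have to differ. The 3 calls are therefore a description only, and it was not tested what sets KO replicate 1 apart.

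Markers of other tissues also varied between these libraries. A list of embryonic RNA-binding and growth genes, such as Lin28b and Hmga2, summed to 389, 34.6 and 34.95 CPM in KO libraries, against 421, 367 and 399 CPM in WT libraries, with 10, 7 and 7 of 10 genes above 0 in KO and 10, 9 and 10 in WT. By this sum KO replicate 1 lay within the WT range, and KO replicates 2 and 3 were far below it. Single genes differed: in KO replicate 1, Igf2bp3, Lin28b and Igf2bp2 lay below every WT library, and Dnmt3b, Trim71 and Cdx2 above every one. Yolk sac endoderm genes summed to 199, 25.4 and 38.3 CPM in KO libraries, against 425, 563 and 680.3 CPM in WT libraries, with 10, 6 and 5 of 10 above 0 in KO and 10, 10 and 10 in WT. Markers of decidua, the maternal tissue around the embryo, were present in every library, with 13 of 13 above 0. They summed to 8281, 9590 and 14360 CPM in KO libraries, against 20690, 37440 and 23220 CPM in WT libraries. Their median log2 fold change was 0.89, so median and sum differed in direction. Prl8a2, a decidual prolactin, had 2896, 1277 and 5328 CPM in KO libraries, against 14970.3, 28709.6 and 17958 CPM in WT libraries, and Hoxa10, a uterine homeobox gene, had 667, 1012 and 956 CPM in KO libraries, against 469, 521 and 286 CPM in WT libraries. Both groups carry the label whole embryo, and the part of such other tissues in the neural values was not tested.

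Wider lists of the same processes were read from the same fit. Here too, genes at or near 0 in KO libraries enter only through their WT counts and then have to differ. The counts and medians of these lists are therefore a description only. Of 40 further progenitor and patterning genes, 18 were tested, 15 lower and 3 higher in KO, with a median log2 fold change of -1.89 and none past the edgeR threshold (5 lower and 1 higher at an unadjusted p under 0.05). Sox11, a SoxC factor of young neurons and their progenitors, had 14.9, 1.53 and 1.92 CPM in KO libraries, against 77.2, 19.6 and 503 CPM in WT libraries. Sox21, a SoxB2 factor, was listed at 0 in every KO library, against 1.23, 0.852 and 4.80 CPM in WT libraries, and Mab21l2, needed for eye development, had 0.196, 0 and 0.142 CPM in KO libraries, against 0.905, 0.609 and 7.54 CPM in WT libraries. For these 3 genes, the ones with the smallest p, the groups did not overlap, which the choice by p favours. Of the 18 tested, 5 had all KO values below all WT values and 1 had all above. The shares over all genes tested were 9.39% and 12.1%. In the other direction, Nkx6-2 had 54.6, 115.7 and 104.6 CPM in KO libraries, all above the 40.99, 53.3 and 44.99 CPM in WT libraries. Over all genes tested, 6.86% were lower and 8.67% higher at an unadjusted p under 0.05 (edgeR quasi-likelihood test).

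Of 35 further neuronal genes, 20 were tested, 19 lower and 1 higher in KO, with a median of -3.10 and none past the edgeR threshold (12 lower and 1 higher at an unadjusted p under 0.05). Without WT replicate 3 this median was -0.83. The limit given for the progenitor and patterning list applies to these counts and medians as well. The gene that was higher, Nrcam, a cell adhesion molecule also made outside the nervous system, had 58.7, 80.97 and 57.9 CPM in KO libraries, against 23.8, 32.3 and 31.4 CPM in WT libraries. L1cam, its relative on axons, had 0.940, 0.999 and 0.641 CPM in KO libraries, against 2.06, 4.38 and 10.2 CPM in WT libraries. Gdap1l1, a neuronal gene related to Gdap1, was listed at 0 in KO libraries, against 0.507, 0.913 and 4.04 CPM in WT libraries. The groups did not overlap for any of the 3, which were the ones with the smallest p, a choice that favours this. Of the 20 tested, 5 had all KO values below all WT values and 1 had all above. The shares over all genes tested were 9.39% and 12.1%. Over all genes tested, 6.86% were lower and 8.67% higher at an unadjusted p under 0.05 (edgeR quasi-likelihood test).

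Limits apply throughout. The 6 counts of Pax6, Lhx2 and Map2 share the divisor 2, as do those of Otx2, and those of Dcx the divisor 4, so their counting error is larger than the counts show. The groups hold 3 libraries each, and WT replicate 1 has the first label number 32 where the other libraries have 45. The labels do not say what this number stands for, and whatever it marks cannot be told apart from this library.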

How the data were processed

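RNA from 6 mouse samples was read as 3′ tags with the Lexogen QuantSeq kit, from Trizol-extracted total RNA, per the labels' protocols. The authors deposited whole-number counts per gene symbol, not normalised, in a table for each sample. Bowtie2, edgeR and the mm10 build are named in the submitters' processing notes; for versions, annotation, strand setting and reads with several matches, the sources used here say nothing. Groups come from the genotype labels.

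With edgeR 4.0.16, low genes were dropped by filterByExpr (minimum count 10), counts were scaled by TMM, and 13848 genes were compared by the quasi-likelihood test and Benjamini-Hochberg adjustment, at a threshold of 0.05. R 4.3.3, DESeq2 1.42.0, limma 3.58.1 and Python 3.11.15 were used, and the fit was tested on simulated data. The simulation gave all genes the same spread and changed only genes with many counts. It therefore does not cover sparse genes or the wide spread within WT seen here. Fold changes are log2 of KO over WT. Classes and lists were described by counts, medians and summed CPM, with no test of a set. All 45 genes are accounted for; those tested are given in every library, with the 3 smallest p of each further list. The members and lists were chosen with earlier results of these data known. Positions come from GENCODE M21 (mm10) and promoters from RefSeq (GRCm38.p6). Alternatives covered scaling, filters, tests, a replicate block, shared divisors, identical rows and each library left out.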

Additional observations from a re-analysis of the deposited data

How the results depend on the processing

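DESeq2 size factors, library size alone and limma-voom left each result run under them in its direction and on its side of the threshold. The exception was the order of 2 class medians under limma-voom. These were -4.28 for regional regulators and -2.77 for neuronal genes, against -3.56 and -4.01 in the main fit. With the DESeq2 test, 6 members passed as lower (3 regional, 1 neuronal), namely Sox2 (adjusted p = 0.00255), Hes5 (0.00324), Pax6 (0.000475), Nkx6-1 (0.0242), En2 (0.0027) and Elavl3 (0.0177), among 387 genes lower and 470 higher. The neuronal genes Dcx, Elavl4, Map2 and Mapt got no adjusted p in that test and could not be called. The samples share only replicate numbers: same-numbered samples had correlations of deviations of 0.127, -0.02 and 0.071, not all above 0.1. With the replicate block 0 members and 0 of all genes were called lower, against 7 genes without it, and 0 genes also with 1 symbol kept per identical set and with KO replicate 1 alone against WT, an alternative added after seeing the data. Without a filter the median log2 fold change of the members was -5.21, and with at least 5 CPM in 3 libraries, which tests fewer genes, it was -2.29, with -1.97 for general progenitor genes. That filter reversed the medians of neural crest and Schwann cell genes (0.18) and paraxial mesoderm genes (0.28). KO replicate 1 alone reversed the trophoblast median (0.13). KO against WT replicate 1 alone, also added later, reversed Mapt (0.28). The cause of these changes was not tested.

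Leaving out each library in turn gave 0 to 3 members lower, 0 to 2 regional regulators lower, 0 to 466 genes lower and 0 to 252 genes higher, the highest of each without KO replicate 1. Without WT replicate 2, 11 genes were lower. Medians ran from -5.92 to -1.51 for all members, -6.73 to -2.07 for regional regulators, -6.19 to -1.26 for general progenitor genes and -6.40 to -0.87 for neuronal genes. The value nearest 0 came without WT replicate 3 in each case, where Stmn2 (range -1.85 to 0.061) and Map2 (-4.07 to 0.0018) reversed. At least 5 counts were reached by 21, 12 and 10 members in KO libraries, and at least 10 counts by 16, 8 and 9 members in KO libraries and 16 in WT replicate 2. At least 0.5 CPM was reached by 15, 11 and 10 members in KO libraries and 16 in WT replicate 2. Without the common divisors the regional share was 9.64, 6.50 and 4.56% in KO libraries and 22.2, 14.98 and 5.62% in WT libraries. With Pax6 left out, also added later, it was 11.7, 1.69 and 1.82% in KO libraries and 23.97, 9.96 and 5.33% in WT libraries. The 27 untested genes had summed counts of 66, 9 and 24 in KO libraries, against 1144, 53 and 9324 in WT libraries, and a count of 0 there allows up to 0.118 to 0.214 CPM.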

Other observations

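Lists of other embryonic tissues did not all go one way, and no gene of the lists below passed the edgeR threshold. Genes near 0 in KO libraries enter the fit only through their WT counts, so the counts and medians of lists are a description only. The named genes of each list are the 3 with the smallest p, with means ± SD of 3 libraries per group. Cardiac muscle genes (5 of 10 tested, 5 lower, median log2 fold change -2.90) summed to 22.2, 6.99 and 18.3 CPM in KO libraries, against 97.6, 40.8 and 401 CPM in WT libraries. Cardiac actin Actc1 averaged 1.22 ± 0.507 CPM in KO and 35.5 ± 49.2 CPM in WT, the myosin light chain gene Myl4 0.808 ± 0.469 CPM in KO and 6.16 ± 4.59 CPM in WT, and Myl3 0.303 ± 0.253 CPM in KO and 23.3 ± 30.8 CPM in WT. Neural crest and Schwann cell genes (9 of 14 tested, 6 lower, median -1.30) summed to 191, 210.1 and 219 CPM in KO libraries, against 219.9, 176 and 454 CPM in WT libraries. Sox9 averaged 7.60 ± 1.26 CPM in KO and 72.8 ± 96.4 CPM in WT, the myelin gene Mbp 0.986 ± 0.793 CPM in KO and 7.40 ± 2.59 CPM in WT, and Ets1 68.00 ± 5.14 CPM in KO and 46.8 ± 10.1 CPM in WT. Paraxial mesoderm genes (6 of 12 tested, 5 lower, median -1.04) summed to 41.1, 57.2 and 52.2 CPM in KO libraries, against 37.1, 31.5 and 53.7 CPM in WT libraries. The paraxial mesoderm sums were thus higher in KO than in WT replicates 1 and 2 although the median was below 0, and this median and that of the neural crest list turn above 0 with at least 5 CPM in 3 libraries. Pax9 was listed at 0 in every KO library and averaged 0.737 ± 0.310 CPM in WT. Meox2 averaged 0.369 ± 0.323 CPM in KO and 1.40 ± 1.99 CPM in WT, and Lfng, a Notch modifier, 40.1 ± 10.1 CPM in KO and 21.04 ± 1.97 CPM in WT.

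Extraembryonic and maternal lists differed in direction. Trophoblast genes (10 of 12 tested, 10 lower, median -1.36) summed to 5688, 92.02 and 272 CPM in KO libraries, against 8284, 9146 and 2366 CPM in WT libraries. Prl3b1, a placental prolactin, averaged 4.59 ± 7.76 CPM in KO and 51.7 ± 44.2 CPM in WT, Tpbpa 22.3 ± 36.6 CPM in KO and 137 ± 89.4 CPM in WT, and Prl7a1 701 ± 1072 CPM in KO and 2459 ± 1317 CPM in WT. Among yolk sac endoderm genes (10 tested, 10 lower, median -2.50), Trf averaged 25.5 ± 8.85 CPM in KO and 98.8 ± 56.96 CPM in WT, Afp 28.1 ± 41.7 CPM in KO and 242 ± 88.4 CPM in WT, and Rbp4 17.02 ± 18.6 CPM in KO and 111 ± 29.7 CPM in WT. Of the embryonic growth genes (9 of 10 tested, 9 lower, median -1.64), Igf2bp3 averaged 4.32 ± 6.77 CPM in KO and 19.8 ± 6.44 CPM in WT, Hmga2 6.91 ± 10.2 CPM in KO and 26.98 ± 13.1 CPM in WT, and Lin28b 1.02 ± 1.70 CPM in KO and 5.15 ± 2.43 CPM in WT. In the decidua list (13 tested, 5 lower and 8 higher), Erv3 averaged 282 ± 201 CPM in KO and 2476 ± 854 CPM in WT, Prl8a2 3167 ± 2039 CPM in KO and 20546 ± 7226 CPM in WT, and desmin, Des, 3024 ± 877 CPM in KO and 1196 ± 283 CPM in WT. Endothelial genes (8 tested, 8 higher, median 0.93) summed to 1560, 2305 and 1988 CPM in KO libraries, against 1195, 1823 and 1075 CPM in WT libraries. Emcn averaged 75.9 ± 16.3 CPM in KO and 33.4 ± 4.82 CPM in WT, Ramp2 80.4 ± 14.5 CPM in KO and 43.99 ± 2.74 CPM in WT, and Tek 35.8 ± 5.46 CPM in KO and 16.04 ± 5.57 CPM in WT. Leukocyte genes (8 tested, 6 higher, median 0.92) summed to 372, 383 and 398 CPM in KO libraries, against 425, 616 and 250.2 CPM in WT libraries. Gzma averaged 72.7 ± 18.4 CPM in KO and 26.7 ± 6.59 CPM in WT, Ptprc 54.3 ± 9.35 CPM in KO and 22.8 ± 6.78 CPM in WT, and Nkg7 26.6 ± 9.84 CPM in KO and 7.38 ± 2.81 CPM in WT. The neural crest regulator Sox10 was at 0 in every KO library and in WT replicate 2.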
